A study of Mus musculus with 8 samples.

Results

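Aminoacyl-tRNA synthetases are the enzymes that attach each amino acid to its transfer RNA, the step that supplies charged tRNA to the ribosome. Mouse cells hold a cytosolic set and a largely separate mitochondrial set, and all of these enzymes are encoded by nuclear genes. The 36 genes described here are 20 cytosolic synthetase genes and 16 mitochondrial ones, the latter named with a final 2, taken by symbol from a table of 19417 genes. Their expression was measured by RNA sequencing of mouse primary cortical neurons.

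The cells came from C57BL/6 mice and were exposed for 24 h to 1 of 4 conditions: the vehicle DMSO, 4-OI at 10 µM, Hemin at 50 µM, or Hemin and 4-OI together at these doses. Hemin is the iron porphyrin released as hemoglobin breaks down, and 4-OI is 4-octyl itaconate, a cell-permeable form of the metabolite itaconate. Each condition had 2 libraries, 8 in all. Nothing in the labels shows that the libraries of a group are separate cultures. The p-values therefore cover the spread of these libraries only, and that spread may be technical.

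Charged and uncharged tRNA also take part in signalling. Uncharged tRNA activates the kinase GCN2, encoded by Eif2ak4, which phosphorylates the initiation factor eIF2, and heme controls another eIF2 kinase, HRI, encoded by Eif2ak1. Phosphorylated eIF2 lowers general translation while favouring translation of the transcription factor ATF4. Known targets of ATF4 include genes for amino acid synthesis, amino acid uptake and many cytosolic synthetases, and inherited variants in synthetase genes cause disorders of peripheral nerve and brain.

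Values are in FPKM, a measure of fragments corrected for transcript length and sequencing depth. Log2 fold changes were computed from log2(FPKM + 1), are followed by the standard error of the limma model after ±, and understate the change of genes with low FPKM. A gene is called changed, and is said to have risen or fallen, where limma's Benjamini-Hochberg adjusted p over all 13746 genes tested was under 0.05. All 36 synthetase genes passed the filter of at least 1 FPKM in at least 2 libraries.

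The estimated depth was 9.1 to 10.4 M (megafragments) per library, so the synthetase genes with the lowest FPKM rested on few fragments, about 23.8 to 34.3 per library for Ears2, while Tars had about 814 to 3906. All 11 neuron markers checked had a mean of at least 1 FPKM in every group. Their summed level was 1982 and 1997 FPKM under DMSO, 1952 and 1894 under 4-OI, 443 and 629 under Hemin, and 635 and 632 under both compounds. The 10 astrocyte markers summed to 702 and 686 FPKM under DMSO and to 629 and 759 under 4-OI, against 3815 and 1479 under Hemin and 1520 and 1569 under both. The 11 microglia and macrophage markers summed to 118 and 108 FPKM under DMSO, 89.0 and 147 under 4-OI, 645 and 203 under Hemin, and 209 and 213 under both. Hemin replicate 1 thus stood apart from the other 3 libraries with hemin. The median absolute log2 difference between the libraries of a group, over all genes tested, was 0.30 under Hemin and 0.09 to 0.12 in the other groups. Endothelial markers summed to at most 14.4 FPKM in any library, with 1.13 and 0.85 under DMSO and 8.72 and 14.4 under Hemin. Fibroblast and meningeal markers summed to 18.6 and 19.6 FPKM under DMSO and to 73.85 and 52.46 under Hemin. Oligodendrocyte lineage markers summed to 26.9 and 30.5 FPKM under DMSO and to 101 and 52.25 under Hemin. Alas2, the heme synthesis enzyme of red cell precursors, was at 0 in every library. The part of cell composition in the results below was not tested, and in bulk samples fewer cells of a type and less RNA per cell cannot be told apart.

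Without hemin, the cytosolic synthetase genes had higher levels per transcript length than the mitochondrial ones. In the DMSO libraries the cytosolic genes ranged from 14.4 to 77.0 FPKM, with medians of 35.2 and 34.3, and the mitochondrial genes ranged from 1.66 to 13.2 FPKM, with medians of 6.06 and 6.44. The lowest cytosolic gene was Vars (valine) and the highest were Nars (asparagine) and Gars (glycine). Among mitochondrial genes Ears2 (glutamate) and Wars2 (tryptophan) were lowest, and Iars2 (isoleucine), Cars2 (cysteine) and Yars2 (tyrosine) were among the highest. Over all genes tested the median was 9.02 FPKM in each DMSO library.

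**Figure D1:**
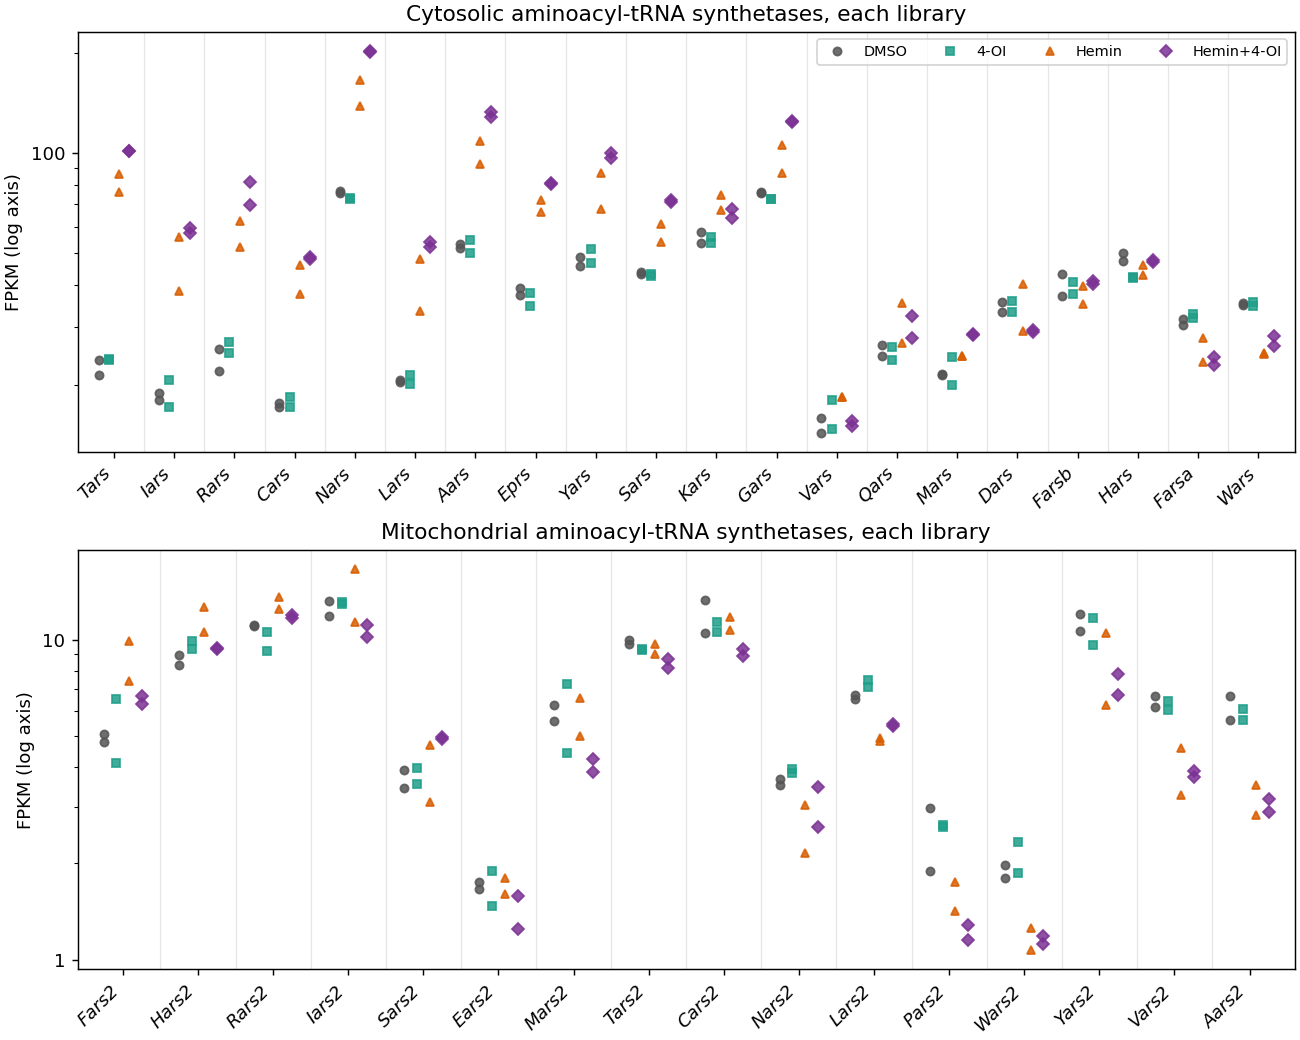
FPKM of every cytosolic (top) and mitochondrial (bottom) synthetase gene in each of the 8 libraries, on log axes with a separate range for each class. Points are single libraries, 2 per group, and genes are ordered by their log2 fold change with Hemin against DMSO. The first 12 cytosolic genes, Tars to Gars, have all 4 libraries with hemin above all 4 without it. So do Qars and Mars, by narrow margins.

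The comparison of Hemin with DMSO asks how the neuron cultures responded to hemin. Of the 20 cytosolic synthetase genes 12 rose, 1 fell and 7 were not called, with a median log2 fold change of 0.37. Over all genes tested 61.3% were called, 38.7% as rises and 22.6% as falls, with a median of 0.19. Of the 16 mitochondrial genes 2 rose, 3 fell and 11 were not called, with a median of −0.07. Log2 fold changes lay above the median of all genes for 14 of 20 cytosolic and 3 of 16 mitochondrial genes.

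The cytosolic genes that rose were, in falling order of log2 fold change, those for threonine, isoleucine, arginine, cysteine, asparagine, leucine, alanine, glutamate with proline, tyrosine, serine, lysine and glycine. Tars, the threonyl-tRNA synthetase, had 23.7 and 21.4 FPKM under DMSO, 23.8 and 24.0 under 4-OI, 76.1 and 86.5 under Hemin, and 101 and 102 under both compounds. All 4 libraries with hemin were high and did not overlap those without it. Tars rose by a log2 fold change of 1.80 ± 0.10 (limma adjusted p = 1.43e-05), which is 3.49-fold on the FPKM + 1 scale and the largest change among the 36 genes.

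Iars, which charges isoleucine tRNA, had 18.9 and 18.0 FPKM under DMSO, 17.2 and 20.7 under 4-OI, 38.3 and 55.9 under Hemin, and 57.6 and 59.5 under both. Its Hemin libraries were further apart than those of any other group, and the lower of them still lay above every library without hemin. The log2 fold change was 1.28 ± 0.17 (limma adjusted p = 0.00039).

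Rars, the arginyl-tRNA synthetase, had 25.7 and 22.1 FPKM under DMSO, 25.1 and 27.0 under 4-OI, 52.2 and 62.4 under Hemin, and 81.6 and 69.8 under both. Cars, for cysteine, had 17.2 and 17.7 FPKM under DMSO, 18.4 and 17.2 under 4-OI, 37.5 and 45.8 under Hemin, and 48.6 and 48.0 under both. In both genes the libraries with hemin did not overlap those without it, and those with both compounds were the highest. Rars rose by 1.22 ± 0.13 (limma adjusted p = 0.000142) and Cars by 1.20 ± 0.11 (limma adjusted p = 8.62e-05) on the log2 scale.

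Nars, the asparaginyl-tRNA synthetase, had 77.0 and 75.6 FPKM under DMSO, 73.3 and 72.7 under 4-OI, 139 and 166 under Hemin, and 201 and 202 under both, the last being the highest levels of any synthetase gene. Lars, for leucine, a sensor of leucine in mTORC1 signalling besides its role in charging, had 20.5 and 20.7 FPKM under DMSO, 20.1 and 21.5 under 4-OI, 33.5 and 48.1 under Hemin, and 52.2 and 54.0 under both. The groups with and without hemin did not overlap in either gene. The log2 fold changes were 0.98 ± 0.10 for Nars (limma adjusted p = 0.00012) and 0.93 ± 0.15 for Lars (limma adjusted p = 0.00114).

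Aars, the alanyl-tRNA synthetase, had 51.8 and 53.2 FPKM under DMSO, 50.1 and 54.5 under 4-OI, 92.8 and 108 under Hemin, and 132 and 129 under both. Eprs, a fused enzyme that charges both glutamate and proline tRNA, had 37.2 and 39.2 FPKM under DMSO, 34.5 and 37.9 under 4-OI, 66.4 and 72.1 under Hemin, and 81.1 and 80.4 under both. Both genes separated the libraries with hemin from those without. The log2 fold change was 0.92 ± 0.10 for Aars (limma adjusted p = 0.000161) and 0.84 ± 0.09 for Eprs (limma adjusted p = 0.000168).

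The smaller rises were 0.69 ± 0.12 for Yars (tyrosine, limma adjusted p = 0.00171), 0.39 ± 0.09 for Sars (serine, 0.00643), 0.35 ± 0.10 for Kars (lysine, 0.0131) and 0.33 ± 0.10 for Gars (glycine, 0.0217). Kars and Gars each encode both the cytosolic and the mitochondrial enzyme, so these genes belong to both compartments. The calls of Sars, Kars and Gars rested on the scaling of the libraries: after rescaling to TPM, or with median-of-ratios scaling, none of these genes passed, and 9 cytosolic genes rose. With quantile normalization they were called, at 0.46, 0.42 and 0.38 (limma adjusted p = 0.00697, 0.00354 and 0.0315). Gars was also not called without DMSO replicate 1 or without DMSO replicate 2, Kars not without DMSO replicate 1, Sars not without DMSO replicate 2, and Gars and Kars not in a fit of only these groups. The Gars value was 0.19 without Hemin replicate 2. TPM and median-of-ratios scaling moved the median of all genes from 0.19 to 0.08 and to −0.01, and the numbers of all genes that rose and fell from 5321 and 3110 to 4587 and 3697 and to 4204 and 4405.

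Wars, the tryptophanyl-tRNA synthetase, known in other cells as an interferon-induced gene, was the only cytosolic gene that fell. It had 34.9 and 35.4 FPKM under DMSO, 35.5 and 34.7 under 4-OI, 25.0 and 24.8 under Hemin, and 26.3 and 28.1 under both. The libraries with hemin were all lower than those without, and the log2 fold change was −0.48 ± 0.09 (limma adjusted p = 0.00203).

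Among the 7 cytosolic genes that were not called, Dars (aspartate) and Farsb had the smallest changes. Dars had 35.5 and 33.3 FPKM under DMSO and 40.3 and 29.1 under Hemin, and Farsb, the beta subunit of the phenylalanine enzyme, had 43.2 and 37.1 under DMSO and 35.2 and 39.7 under Hemin. In both genes the groups overlapped. Dars had a log2 fold change of −0.01 ± 0.14, which became −0.24 without Hemin replicate 1 and 0.22 without Hemin replicate 2, and each of these passed the threshold (limma adjusted p = 0.0273 and 0.0334). Farsb had −0.10 ± 0.11 (limma adjusted p = 0.456). Farsa, the alpha subunit, had −0.27 ± 0.11 and did not pass (limma adjusted p = 0.0508).

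The log2 fold changes of the remaining genes without a call were −0.13 ± 0.09 for Hars (histidine), 0.18 ± 0.11 for Mars (methionine), 0.26 ± 0.15 for Qars (glutamine) and 0.27 ± 0.12 for Vars. In the GRCm38 annotation 13 of the 36 genes have exons that overlap exons of another gene, and the sources used here do not say whether strand was used in counting. Mars is one of them: its partner on the opposite strand is Ddit3, which rose by 2.10 ± 0.20. Without strand, their reads in the overlap cannot be told apart, and the extent of the overlap was not measured. Aars overlaps Exosc6 on the same strand, and the called genes Cars, Yars and Vars2 each overlap a gene on the opposite strand.

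Counted by single libraries, 15 cytosolic genes had both Hemin libraries above both DMSO libraries, 3 had both below, and 2 overlapped. Over all genes tested 48.2% were separated upward and 31.2% downward. In Hemin replicate 1, the library with the highest astrocyte and microglia marker sums, 14 of the 20 cytosolic genes were lower than in Hemin replicate 2. Without Hemin replicate 1 the same 13 cytosolic genes were called in the same direction, with Tars at 1.89 and Iars at 1.55, and Dars and Farsa were added as lower. Without Hemin replicate 2 these 13 genes were again called, with Dars and Qars added as higher and Hars as lower. Beside these changes, 7 of 11 neuron markers fell and 1 rose, and 10 of 10 astrocyte and 9 of 10 tested microglia and macrophage markers rose.

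**Figure D2:**
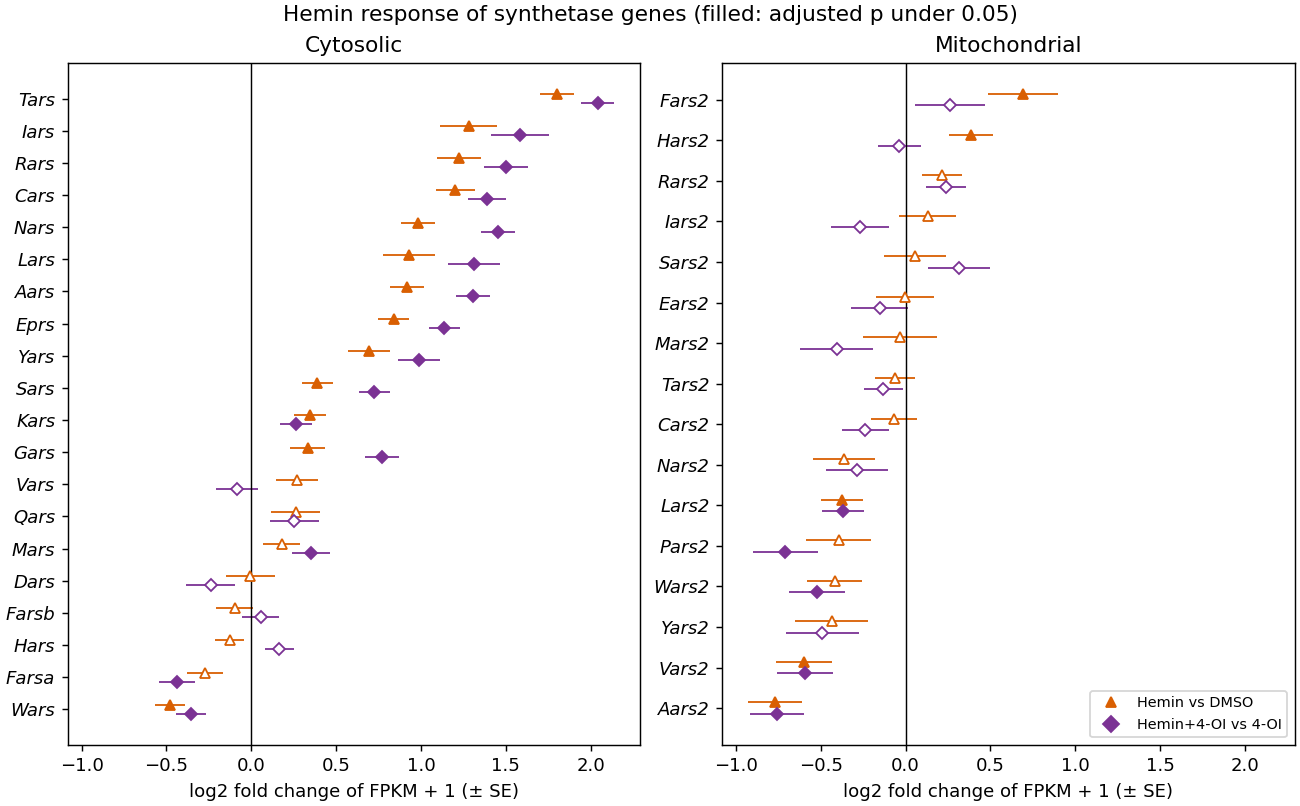
Log2 fold change of FPKM + 1 with its standard error for each cytosolic (left) and mitochondrial (right) gene, for Hemin against DMSO (triangles) and for both compounds against 4-OI alone (diamonds). Filled symbols passed the limma threshold. Tars lies at 1.80 and 2.04, and Aars2 at −0.77 and −0.76.

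The 20 cytosolic genes can be split by the multi-synthetase complex, a cytosolic assembly of several synthetases held by the scaffold proteins AIMP1, AIMP2 and EEF1E1. Of 8 genes whose products belong to it, 5 rose (Iars, Rars, Lars, Eprs and Kars), none fell and the median log2 fold change was 0.59. Of the 12 others 7 rose and 1 fell, with a median of 0.36. Split by the 2 structural classes of synthetase, 5 of 9 class I genes rose and 1 fell (median 0.69), and 6 of 10 class II genes rose and none fell (median 0.34), with Eprs in neither because it joins both. No difference between these subsets was tested.

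Promoter sequence was available for 13 of the 20 cytosolic and 14 of the 16 mitochondrial genes in the RefSeq promoter table for GRCm38.p6, a later build than the mm8 build named for the expression data. Each entry spans 250 bases before to 50 bases after the annotated start. These 300 bases were searched on both strands for TGATGNAA, which reads TTNCATCA on the other strand, a core of the element bound by dimers of C/EBP proteins and ATF4. It was found for 5 of 13 cytosolic genes with an entry (38.5%), Aars, Gars, Iars, Tars and Yars, and for 0 of 14 mitochondrial ones. Counted by entries rather than by genes, 1304 of 32851 promoters in the table had it (3.97%). All 5 genes with a match were among the 8 cytosolic genes with a promoter entry that rose with Hemin. The 5 entries of cytosolic genes without a call had none. This split rests in part on the Gars call, which was lost with some scalings and some libraries left out, as given above. A match is a description of the letters and does not show binding. The 150 bases before the start are shown for the genes with a match there, from 5′ to 3′ on the gene's strand, with the match in capitals.
Tars: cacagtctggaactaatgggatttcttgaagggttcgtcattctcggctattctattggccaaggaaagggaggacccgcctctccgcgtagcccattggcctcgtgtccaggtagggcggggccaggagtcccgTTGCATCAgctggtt
Aars: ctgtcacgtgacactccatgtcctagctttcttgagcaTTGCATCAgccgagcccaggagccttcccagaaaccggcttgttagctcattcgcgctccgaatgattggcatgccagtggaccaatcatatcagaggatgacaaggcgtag
Gars: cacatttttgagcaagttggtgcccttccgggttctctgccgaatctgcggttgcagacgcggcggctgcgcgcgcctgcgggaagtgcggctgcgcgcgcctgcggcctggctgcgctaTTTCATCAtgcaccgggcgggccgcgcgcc
The Tars stretch is chr15:11399659-11399808 on the minus strand, with the first base of the match 15 bases before the start. The Aars stretch is chr8:111033692-111033841 on the plus strand, with the match beginning 112 bases before the start. The Gars stretch is chr6:55037851-55038000 on the plus strand, with the match beginning 30 bases before the start.

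In Iars and Yars, and at another place in Aars, the match lay just after the start. These shorter windows of 30 bases, from 10 bases before the start onward, were chosen for display after the values were seen.
Iars: gcctggcactgtcagtaTTGCATCAcctcc
Yars: cgacgagctcagcTGATGCAAcccgacggg
Aars: caaggcgtagcgggtcactTTTCATCAgag
The windows are chr13:49682120-49682149 for Iars, chr4:129189893-129189922 for Yars and chr8:111033832-111033861 for Aars, all on the plus strand, and their matches begin at bases 8, 4 and 10 after the start. The cytosolic genes without an entry in the table were Cars, Hars, Lars, Nars, Rars, Vars and Wars, and the mitochondrial ones were Hars2 and Pars2.

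The mitochondrial synthetases charge tRNAs for the proteins made inside mitochondria, all of them subunits of the respiratory chain and ATP synthase. With Hemin, Aars2, Vars2 and Lars2 fell and Fars2 and Hars2 rose. Aars2, the mitochondrial alanine enzyme, had 5.59 and 6.65 FPKM under DMSO, 5.59 and 6.05 under 4-OI, 3.51 and 2.84 under Hemin, and 3.18 and 2.89 under both compounds. All libraries with hemin were below all libraries without it. Its log2 fold change was −0.77 ± 0.16 (limma adjusted p = 0.00321), the lowest among the 36 genes, and it was the only mitochondrial gene called with either DMSO library left out.

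Vars2, for valine, had 6.64 and 6.15 FPKM under DMSO, 6.03 and 6.45 under 4-OI, 4.59 and 3.26 under Hemin, and 3.88 and 3.71 under both. Lars2, for leucine, had 6.53 and 6.70 FPKM under DMSO, 7.48 and 7.10 under 4-OI, 4.93 and 4.82 under Hemin, and 5.46 and 5.38 under both. In both genes the libraries with hemin were the lower ones, without overlap. The log2 fold changes were −0.60 ± 0.16 for Vars2 (limma adjusted p = 0.013) and −0.37 ± 0.13 for Lars2 (limma adjusted p = 0.0302), and neither gene was called without DMSO replicate 1, without DMSO replicate 2, or in a fit of only these groups. Lars2 was also not called without either library of the group with both compounds, which enter through the pooled spread.

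Fars2, the mitochondrial phenylalanine enzyme, had 5.08 and 4.79 FPKM under DMSO, 4.13 and 6.54 under 4-OI, 9.92 and 7.42 under Hemin, and 6.28 and 6.65 under both. Hars2, for histidine, had 8.93 and 8.31 FPKM under DMSO, 9.35 and 9.91 under 4-OI, 10.6 and 12.7 under Hemin, and 9.33 and 9.38 under both. In these genes the Hemin libraries were the highest, while the libraries with both compounds lay among or beside those with 4-OI alone. The log2 fold changes were 0.69 ± 0.21 for Fars2 (limma adjusted p = 0.0188) and 0.39 ± 0.13 for Hars2 (limma adjusted p = 0.0287). Neither was called with median-of-ratios scaling, with quantile normalization, or without either DMSO replicate, Fars2 was not called without Hemin replicate 1 (0.51, limma adjusted p = 0.0611), and Hars2 was not called without Hemin replicate 2 (0.27, limma adjusted p = 0.0549). Hars2 also lost its call after rescaling to TPM, in a fit of only these groups, and without either library with both compounds. Hars and Hars2 lie on opposite strands with overlapping exons, and Fars2 has exons that overlap those of Lyrm4 and Nrn1 on the opposite strand.

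Ears2 and Mars2 had the smallest changes in the mitochondrial set. Ears2, for glutamate, had 1.66 and 1.75 FPKM under DMSO and 1.60 and 1.80 under Hemin, and Mars2, for methionine, had 5.56 and 6.23 under DMSO and 5.0 and 6.55 under Hemin. The groups overlapped in both, and the log2 fold changes were −0.00 ± 0.17 and −0.03 ± 0.22. The other mitochondrial genes without a call ran from −0.43 ± 0.22 for Yars2 and −0.42 ± 0.16 for Wars2 (limma adjusted p = 0.11 and 0.0529) to 0.21 ± 0.12 for Rars2. By single libraries, 3 mitochondrial genes had both Hemin libraries above DMSO (Fars2, Hars2 and Rars2), 7 had both below (Aars2, Lars2, Nars2, Pars2, Vars2, Wars2 and Yars2) and 6 overlapped, against 48.2% of all genes upward and 31.2% downward.

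The number of mitochondrial genes called varied with the library scaling. Against 2 that rose and 3 that fell in the FPKM values as deposited, 1 rose and 6 fell after rescaling to TPM, 0 rose and 7 fell with median-of-ratios scaling, and 0 rose and 8 fell with quantile normalization. Among the 13746 genes tested, 4587 rose and 3697 fell with TPM, 4204 and 4405 with median-of-ratios scaling, and 3642 and 4037 with quantile normalization. The genes added as lower were Nars2, Wars2 and Yars2 in all 3 scalings, with Pars2 in the last 2 and Ears2 in the last. Without Hemin replicate 1 the counts were 1 rise and 6 falls, among 5610 rises and 3700 falls over all genes.

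Setting the cytosolic gene beside the mitochondrial gene for the same amino acid gave 17 pairs, with Eprs set against both Ears2 and Pars2, and Fars2 against both Farsa and Farsb. The cytosolic level was above the mitochondrial one in every pair and library, with ratios of FPKM between 1.30 and 77.6. The log2 fold change with Hemin was larger for the cytosolic gene in 13 of 17 pairs, with a median difference of 1.01. Tars over Tars2 had ratios of 2.39 and 2.21 under DMSO, 2.55 and 2.59 under 4-OI, 8.43 and 8.95 under Hemin, and 11.7 and 12.5 under both compounds. Aars over Aars2 had ratios of 9.27 and 8.0 under DMSO, 8.96 and 9.0 under 4-OI, 26.4 and 38.2 under Hemin, and 41.6 and 44.5 under both. In the first pair Tars rose while Tars2 had 9.94 and 9.67 FPKM under DMSO and 9.03 and 9.67 under Hemin, and in the second pair both genes were called, in opposite directions.

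Ratios of 12 pairs were higher in both Hemin libraries than in both DMSO libraries, and 3 were lower. Of all genes tested, taken singly, 48.2% were separated upward and 31.2% downward in this comparison, and no such share was computed for ratios. Pairs that share Eprs or Fars2 are not independent. The lower ratios were those of Hars over Hars2, with means of 5.65 under DMSO and 3.85 under Hemin, Farsa over Fars2, with 6.30 and 2.98, and Farsb over Fars2, with 8.13 and 4.44. For tryptophan both genes were lower in both Hemin libraries than in both DMSO libraries, although Wars2 was not called, and Wars over Wars2 had mean ratios of 18.6 and 21.5. Summed over each class, the cytosolic genes had 6.88 and 6.83 times the FPKM of the mitochondrial genes with DMSO, 6.75 and 6.85 under 4-OI, 9.61 and 12.2 under Hemin, and 14.7 and 14.9 under both compounds.

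**Figure D3:**
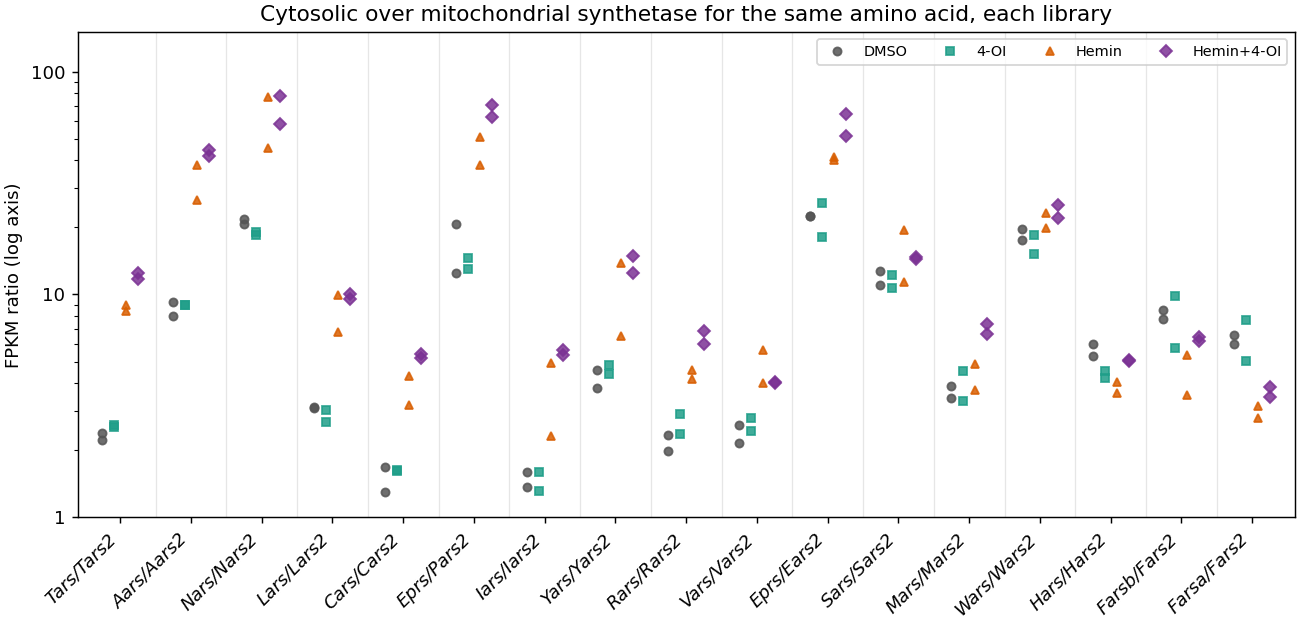
FPKM of the cytosolic gene divided by that of the mitochondrial gene for the same amino acid, in each library, on a log axis. Points are single libraries, 2 per group, and pairs are ordered by the difference between their log2 fold changes with Hemin, from Tars/Tars2 at the left, with mean ratios of 2.30 under DMSO and 8.69 under Hemin, to Farsa/Fars2 at the right, with 6.30 and 2.98.

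Genes that act with the synthetases did not share one direction. Of 9 genes for the scaffold, tRNA export and editing of mischarged tRNA, 2 rose and 4 fell with Hemin, with a median log2 fold change of −0.17. As above, 38.7% of all genes tested rose and 22.6% fell in this comparison, with a median of 0.19, and the lists that follow stand beside these values. The scaffold genes Aimp2 and Eef1e1 fell by 0.73 ± 0.14 and 0.64 ± 0.12 (limma adjusted p = 0.00282 and 0.00192), while Aimp1 had 0.29 ± 0.12 and was not called (limma adjusted p = 0.0634). Aimp1 had 0.14 without Hemin replicate 1 and 0.44, which passed, without Hemin replicate 2. Aimp2 had 23.8 and 22.0 FPKM under DMSO, 23.3 and 21.7 under 4-OI, 15.4 and 11.7 under Hemin, and 12.6 and 14.6 under both, with no overlap between libraries with and without hemin. Xpot, the nuclear exporter of tRNA, rose by 0.42 ± 0.13 (limma adjusted p = 0.0204), a value that was 0.25 without Hemin replicate 2 and 0.59 without Hemin replicate 1, and it was not called without DMSO replicate 1 or without DMSO replicate 2. Prorsd1, a predicted editing protein, rose by 1.11 ± 0.19 from 0.55 and 0.72 FPKM, and Dtd1, a deacylase that removes D-amino acids from tRNA, fell by 0.78 ± 0.14.

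Of 17 cytosolic elongation and initiation genes 6 rose and 2 fell, with a median of 0.17, close to the median and share of rises over all genes. Eif2s2, the beta subunit of eIF2, rose by 1.38 ± 0.10 and Eif4ebp1, an inhibitor of cap-dependent initiation, by 2.26 ± 0.16, while Eif2b5, the catalytic subunit of the eIF2 exchange factor, fell by 0.72 ± 0.11. Of 18 mitochondrial translation genes 4 rose and 5 fell, with a median of −0.13 against 0.19 for all genes. There the lowest p-values were those of Trit1, which modifies an adenosine of certain tRNAs (1.38 ± 0.15), Mtrf1l, a mitochondrial release factor (0.75 ± 0.15), and Mtif3, a mitochondrial initiation factor (−0.77 ± 0.18).

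Most listed genes linked to eIF2 and ATF4 rose. Of 15 eIF2 kinase and regulator genes 12 rose and none fell, with a median of 1.24. Cebpb, a C/EBP transcription factor, rose by 3.14 ± 0.14, Sesn2, a stress-induced inhibitor of mTORC1, by 2.65 ± 0.17, and Ppp1r15a, which directs dephosphorylation of eIF2, by 2.18 ± 0.13. Atf4 had 72.6 and 75.6 FPKM under DMSO, 71.3 and 74.9 under 4-OI, 114 and 141 under Hemin, and 149 and 153 under both compounds, and rose by 0.77 ± 0.11 (limma adjusted p = 0.000548). Like most of the cytosolic synthetase genes that rose, it was lowest among hemin libraries in Hemin replicate 1. Eif2ak4 (GCN2) rose by 1.06 ± 0.14 (limma adjusted p = 0.000452), and Eif2ak1 (HRI) had 0.04 ± 0.11 and no call (limma adjusted p = 0.731), a value whose sign changed to −0.08 after rescaling to TPM.

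Of 11 amino acid synthesis genes 10 rose and none fell, with a median of 1.80. The serine pathway genes Psat1 and Psph rose by 2.28 ± 0.08 and 2.26 ± 0.12, and Mthfd2, of mitochondrial one-carbon metabolism, by 2.07 ± 0.13. All 10 amino acid transporter genes tested, of 11 listed, rose, with a median of 1.34. They include Slc3a2, the heavy chain shared by several transporters (2.42 ± 0.09), Slc7a11, the cystine transporter (2.69 ± 0.14), and Slc7a3, a carrier of cationic amino acids (2.01 ± 0.15). In the promoter table the searched letters were found in 3 of 10 amino acid synthesis genes with an entry (Asns, Pycr1 and Got1), 2 of 7 transporter genes (Slc7a11 and Slc1a4), 1 of 13 eIF2 kinase and regulator genes (Trib3), 1 of 13 cytosolic translation genes (Eif2s3x), and none of 8 complex, export and editing genes or 15 mitochondrial translation genes.

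The response to hemin was measured again in the presence of 4-OI, by comparing both compounds with 4-OI alone. This comparison shares no library with Hemin against DMSO, although both use the spread pooled over all groups. Of the 20 cytosolic genes 13 rose and 2 fell, with a median log2 fold change of 0.75, and of the 16 mitochondrial genes 0 rose and 5 fell, with a median of −0.28. Over all genes tested 57.5% were called, 33.3% as rises and 24.2% as falls, with a median of 0.13. The 12 cytosolic genes that rose with Hemin alone all rose here too, 100% of the former and 92.3% of the 13, and Mars was added. The 3 mitochondrial genes that fell with Hemin alone fell here too, 100% of the former and 60.0% of the 5. Over all genes tested 4139 rose in both comparisons, 77.8% of the 5321 and 90.5% of the 4575 that rose in each, and 2699 fell in both, 86.8% of 3110 and 81.0% of 3332.

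Tars rose by 2.04 ± 0.10 (limma adjusted p = 8.34e-06), Iars by 1.58 ± 0.17 (0.000154), Rars by 1.5 ± 0.13 (6.07e-05), Nars by 1.45 ± 0.10 (2.79e-05), Cars by 1.39 ± 0.11 (4.88e-05) and Lars by 1.31 ± 0.15 (0.000233) on the log2 scale. Next came Aars at 1.30, Eprs at 1.14, Yars at 0.99, Gars at 0.77 and Sars at 0.73. Kars had 0.26 ± 0.10 (limma adjusted p = 0.0426) and Mars 0.35 ± 0.11 (limma adjusted p = 0.0249). TPM and median-of-ratios scaling ended the calls of both, as did leaving out DMSO replicate 1 or 2, 4-OI replicate 1, or replicate 1 of the group with both compounds. Without replicate 2 of the group with both compounds neither was called, and Kars was not called without 4-OI replicate 2. Wars fell again, by 0.36 ± 0.09, and Farsa fell by 0.44 ± 0.11 (limma adjusted p = 0.00926 and 0.00813). Farsa had 30.4 and 31.7 FPKM under DMSO, 31.9 and 32.7 under 4-OI, 27.7 and 23.5 under Hemin, and 24.3 and 23.0 under both compounds, so its libraries with hemin were all lower. Wars was not called without 4-OI replicate 1 or replicate 1 of the group with both compounds, nor Farsa without replicate 2 of either group.

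Among the mitochondrial genes Aars2 fell by 0.76 ± 0.16, Pars2 (proline) by 0.71 ± 0.19, Vars2 by 0.59 ± 0.16, Wars2 by 0.52 ± 0.16 and Lars2 by 0.37 ± 0.13, with limma adjusted p of 0.00397, 0.0133, 0.0147, 0.0242 and 0.0343. Aars2 was again the only one called with every single library left out in turn: Lars2, Pars2 and Vars2 lost their calls when any 1 of the 4 libraries compared was left out, Wars2 for each of these but 4-OI replicate 2, and Lars2 also without either DMSO replicate. Pars2 had 2.98 and 1.89 FPKM under DMSO, 2.64 and 2.60 under 4-OI, 1.75 and 1.42 under Hemin, and 1.15 and 1.28 under both. Wars2 had 1.98 and 1.80 FPKM under DMSO, 2.34 and 1.87 under 4-OI, 1.26 and 1.07 under Hemin, and 1.19 and 1.12 under both. Both are low genes whose libraries with hemin all lay below those without. Fars2 and Hars2, which rose with Hemin alone, had 0.26 ± 0.21 and −0.04 ± 0.13 here.

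By single libraries, 15 cytosolic genes had both libraries with both compounds above both 4-OI libraries, 3 had both below and 2 overlapped, against 49.0% upward and 36.1% downward over all genes. For mitochondrial genes these numbers were 2, 11 and 3. The neuron, astrocyte and microglia marker sums differed between these groups as well, and their part in the changes was not tested. Of the marker lists, 6 of 11 neuron markers fell and 1 rose, 8 of 10 astrocyte markers rose, and 1 of 10 tested microglia and macrophage markers rose.

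The comparison of 4-OI with DMSO asks what 4-OI does on its own. No synthetase gene was called, as no gene of the 13746 tested was called by limma (0%), and 179 genes had an unadjusted p under 0.05. Among these was 1 cytosolic gene, Hars, with 47.2 and 50.0 FPKM under DMSO and 42.2 and 42.0 under 4-OI, a log2 fold change of −0.20 ± 0.09 (limma unadjusted p = 0.046, adjusted p = 1). Rars2 had the next lowest p of the 36 genes, with −0.15 ± 0.12 (limma unadjusted p = 0.234). Log2 fold changes ran from −0.20 to 0.12 in the cytosolic class and from −0.15 to 0.14 in the mitochondrial class, with medians of 0.00 and 0.01, and that of all genes was 0.01.

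Libraries of the 4-OI and DMSO groups overlapped in 14 of 20 cytosolic and 11 of 16 mitochondrial genes. In the cytosolic class 2 were separated upward and 4 downward, and in the mitochondrial class 3 and 2, against 20.2% upward and 14.9% downward over all genes. Atf4 had −0.02 ± 0.11, Ddit3 −0.02 ± 0.20, Eif2ak4 0.17 ± 0.14 and Eif2ak1 0.00 ± 0.11. Aimp1, Aimp2, Eef1e1 and Xpot lay between −0.06 and −0.02.

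Whether 4-OI altered the levels reached with hemin was asked by comparing both compounds with Hemin. No gene was called by limma (0%), and 1209 genes had an unadjusted p under 0.05, among them 9 cytosolic and 0 mitochondrial synthetase genes. The cytosolic log2 fold changes ran from −0.25 to 0.41 with a median of 0.22, and 15 of 20 were above 0. The mitochondrial median was −0.14, with 13 of 16 below 0, and it was −0.080 without replicate 2 of the group with both compounds. The median of all genes was −0.03. Marker lists moved in this comparison too, with no call: all 11 neuron markers were above 0 (median 0.24), and the 10 astrocyte and 10 tested microglia and macrophage markers were all below 0 (medians −0.52 and −0.71). Their part in the synthetase values was not tested. Nars, whose values are given above, had 0.41 ± 0.10 (limma unadjusted p = 0.00323, adjusted p = 0.556) and Aars had 0.38 ± 0.10 (limma unadjusted p = 0.00527, adjusted p = 0.556).

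By single libraries, 15 cytosolic genes had both libraries with both compounds above both Hemin libraries, 1 had both below (Vars) and 4 overlapped, against 14.4% upward and 20.2% downward over all genes. Of the mitochondrial genes 2 were separated upward (Lars2 and Sars2), 9 downward and 5 overlapped. Both libraries with both compounds lay above Hemin replicate 1 in 15 cytosolic genes and above Hemin replicate 2 in 16, against 40.1% and 33.2% of all genes. In the mitochondrial class they lay below Hemin replicate 1 in 13 genes and above it in 2, and below Hemin replicate 2 in 9 and above it in 7, against 47.0% of all genes below Hemin replicate 1 and 42.7% below Hemin replicate 2.

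The calls in this comparison turned on 1 library. Without Hemin replicate 2, so that Hemin replicate 1 stood alone for its group and was assumed to vary like the others, 11 cytosolic genes were called higher (Aars, Cars, Eprs, Gars, Iars, Lars, Nars, Rars, Sars, Tars and Yars), Dars was called lower, and Iars2 and Yars2 were called lower, among 1872 genes higher and 2599 lower in all. Without Hemin replicate 1 no synthetase gene was called, and the cytosolic median was 0.15. The marker sums of both libraries with both compounds were close to those of Hemin replicate 2, and the astrocyte sum of Hemin replicate 1 was higher, at 3815 FPKM.

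**Figure D4:**
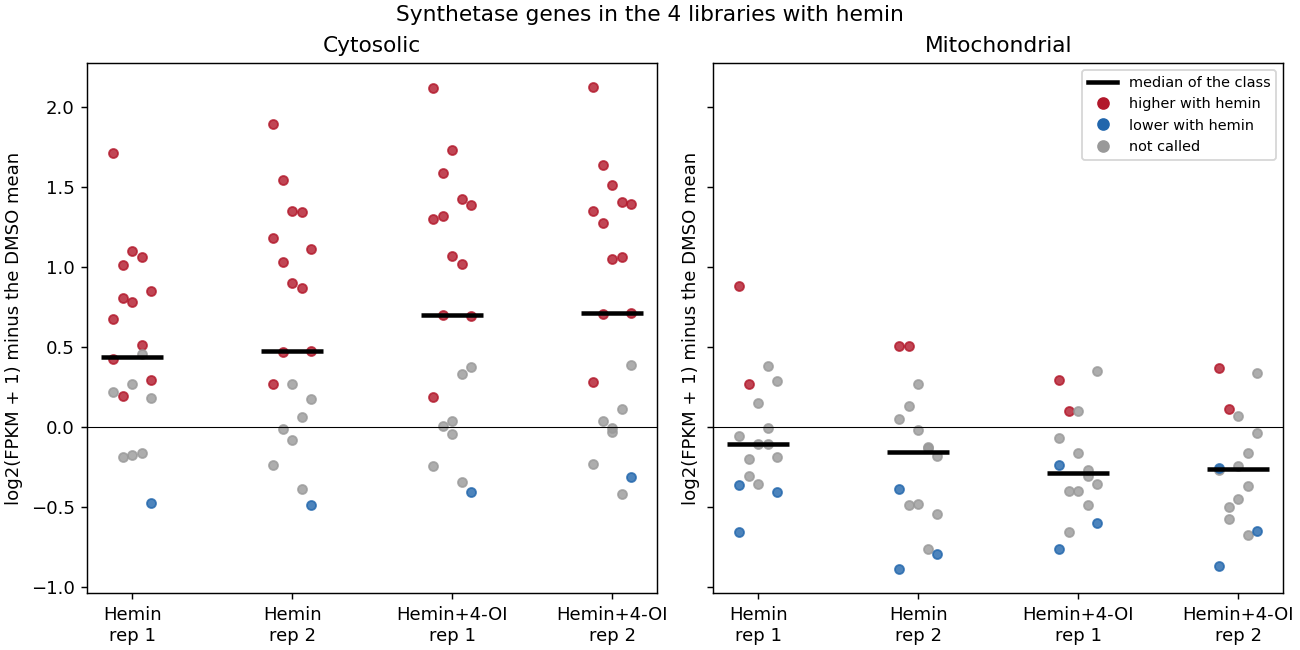
Log2(FPKM + 1) of each synthetase gene in each library with hemin, minus its mean in the DMSO libraries, for cytosolic (left) and mitochondrial (right) genes. Points are genes coloured by their call for Hemin against DMSO, and black bars are class medians, which were 0.44 and 0.47 in the Hemin libraries and 0.70 and 0.71 under both compounds for cytosolic genes, and −0.11, −0.15, −0.28 and −0.26 for mitochondrial genes.

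The interaction term, which subtracts the 4-OI effect in the absence of hemin from the 4-OI effect in its presence, gave no call by limma (0%) and 689 genes with an unadjusted p under 0.05, among them 5 cytosolic and 1 mitochondrial gene. Nars had 0.47 ± 0.14 (limma unadjusted p = 0.00973, adjusted p = 0.854) and Gars 0.44 ± 0.15 (limma unadjusted p = 0.0157, adjusted p = 0.854). The medians were 0.26 for cytosolic and −0.09 for mitochondrial genes, and −0.05 for all genes. Without Hemin replicate 2, 9 cytosolic genes were called higher, and 1 cytosolic and 1 mitochondrial gene lower, among 989 genes higher and 1579 lower of the 13746 tested.

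The genes of the related pathways had no call in the comparison of both compounds with Hemin either. The lowest unadjusted p of each list there was that of Aimp1 (0.21 ± 0.12), Eif2s2 (0.32 ± 0.10), Trmu, a mitochondrial tRNA thiolation enzyme (0.41 ± 0.21), Ppp1r15a (0.34 ± 0.13), Asns, the asparagine synthetase (0.53 ± 0.17), and Slc7a5, a carrier of large neutral amino acids (0.47 ± 0.19). Atf4 had 0.25 ± 0.11, Ddit3 0.46 ± 0.20, Eif2ak4 −0.01 ± 0.14, Eif2ak1 −0.06 ± 0.11, Aimp2 0.02 ± 0.14, Eef1e1 0.15 ± 0.12 and Xpot 0.21 ± 0.13. In the comparison of both compounds with 4-OI, Atf4 rose by 1.04 ± 0.11, Ddit3 by 2.58 ± 0.20, Eif2ak4 by 0.87 ± 0.14, Aimp1 by 0.55 ± 0.12 and Xpot by 0.69 ± 0.13, Aimp2 fell by 0.69 ± 0.14 and Eef1e1 by 0.45 ± 0.12, and Eif2ak1 had −0.01 ± 0.11.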

How the data were processed

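RNA-seq was analysed in 8 libraries, 2 for each of 4 groups assigned from the sample titles. The authors deposited a table of FPKM values with 2 decimals, and the submitters' processing notes name Bowtie2, RSEM and the build mm8, without versions. FPKM values carry no read counts, so no count model was used. Depth was estimated from the steps between low values of 1177 genes with transcripts of 400 to 1000 nt. Their non-zero values under 5 fragments numbered 166 to 297 per library. The depth taken put the largest share of these values, 69.4% to 80.1%, no more than 0.15 from a whole fragment number. That share is therefore no separate check of the depth, which entered no test.

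Log2(FPKM + 1) of the 13746 genes with at least 1 FPKM in at least 2 libraries was fitted with limma 3.58.1 (R 4.3.3; intensity trend), with a mean per group over all 8 libraries (residual degrees of freedom 4, prior 4.28). P-values were two-sided and Benjamini-Hochberg adjusted over all genes tested, with a threshold of 0.05. Tables, the promoter search and figures were made with Python 3.11.15, numpy 2.4.6, pandas 2.3.3 and matplotlib 3.10.9. The procedure was tested on simulated data. The 36 genes, the pathway and marker lists and the tests were chosen with earlier results of these data known. Values in every library are given for the 8 cytosolic and up to 6 mitochondrial called genes with the largest change with Hemin. For the 2 with the smallest change per class, FPKM is given for DMSO and Hemin only. In other comparisons up to 6 called genes, or the 2 with the lowest p, are named. Of these, Hars has FPKM for DMSO and 4-OI only, and Rars2 and Gars have none. Of each pathway list the 3 lowest p with Hemin, the lowest p with both compounds against Hemin, and 8 fixed genes are given; any further gene was picked with its values in view. Exon overlaps come from the GRCm38 annotation, not the authors' build.

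Results were recomputed without each library in turn, with the pseudocount at 0.1, with the filter removed or set to 5 FPKM, with 3 other scalings (quantile normalization, TPM and median of ratios), with replicate number as a block, without the intensity trend, and on only those groups being compared.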

Additional observations from a re-analysis of the deposited data

How the results depend on the processing

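For Hemin against DMSO, cytosolic genes that rose numbered 9 after rescaling to TPM and with median-of-ratios scaling, and 10 with only the groups compared. Quantile normalization kept all 13 cytosolic calls. Cytosolic genes that fell numbered 2 with a filter at 5 FPKM, 2 with TPM and 4 with median-of-ratios scaling, where the cytosolic median was 0.14. Mitochondrial genes that rose numbered 1 with TPM, 0 with median-of-ratios scaling, 0 with quantile normalization and 1 with only the groups compared, and those that fell 6, 7, 8 and 1, with medians of −0.19, −0.28 and −0.44 under the 3 scalings. The scalings moved the split of all genes called from 5321 higher and 3110 lower to 4587 and 3697, 4204 and 4405, and 3642 and 4037. For both compounds against 4-OI, mitochondrial genes that fell numbered 3 with a filter at 5 FPKM and 8 with quantile normalization, the cytosolic median was 0.64 with TPM and 0.59 with median-of-ratios scaling, and the mitochondrial median was −0.41 with both and −0.51 with quantile normalization. With quantile normalization the mitochondrial median was −0.065 for both compounds against Hemin and 0.040 for the interaction.

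Leaving out each library in turn gave, for Hemin against DMSO, 10 to 14 cytosolic rises, 1 to 3 cytosolic falls, 0 to 2 mitochondrial rises, 1 to 6 mitochondrial falls and mitochondrial medians of −0.15 to −0.066. For both compounds against Hemin it gave 0 to 11 cytosolic rises, 0 to 1 cytosolic falls and 0 to 2 mitochondrial falls. For both compounds against 4-OI it gave 1 to 3 cytosolic falls, 0 to 2 mitochondrial rises and 1 to 7 mitochondrial falls. For the interaction it gave 0 to 9 cytosolic rises, 0 to 1 cytosolic and 0 to 1 mitochondrial falls, and medians of 0.14 to 0.33 and −0.18 to −0.036, and for 4-OI against DMSO cytosolic medians of −0.035 to 0.015. For Hemin against DMSO, synthetase genes without a call were followed by name only for the 2 with the smallest change per class. Signs turned for Dars (−0.24 without Hemin replicate 1 to 0.22 without Hemin replicate 2), Farsb (−0.21 to 0.0077), Ears2 (−0.057 to 0.050), Mars2 (−0.20 to 0.13) and the pathway gene Eif2ak1 (−0.036 to 0.12, with −0.080 after TPM and −0.18 with median-of-ratios scaling). With median-of-ratios scaling signs also turned for Mars (0.18 to −0.04), Iars2 (0.13 to −0.09), Rars2 (0.21 to −0.0007) and Sars2 (0.06 to −0.13). The causes were not tested.

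With the replicate number as a block, 12 cytosolic genes rose and 1 fell, and 2 mitochondrial genes rose and 3 fell, for Hemin against DMSO; for both compounds against 4-OI Kars and Lars2 were no longer called, leaving 12 cytosolic rises and 4 mitochondrial falls. Between groups, the differences of replicate 1 from replicate 2 had correlations of −0.09 to 0.05. The labels do not say what a replicate number shares. With a single difference per group, these correlations cannot show whether the libraries are paired. With 2 libraries per group and no counts, changes in genes near 1 FPKM such as Ears2 and Wars2 are the least precise.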
